A study of Rattus norvegicus with 6 samples.

Results

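Gene expression was compared between untreated heart muscle cells of newborn rats and the same kind of cells under either of 2 growth stimuli, mechanical stretch and phenylephrine. The mean of the 2 stretch and 2 phenylephrine arrays, with equal weight for each treatment, was set against the mean of the 2 control arrays, so the comparison took in all 6 arrays of the series. A gene was counted in the common response when this pooled difference had an adjusted p under 0.05 and when all 4 treated arrays lay above both controls (a common rise) or below both (a common fall). Of 14217 named genes, 269 met both conditions, 176 as rises and 93 as falls.

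The cells came from hearts of Wistar rats 1 to 2 days old and were separated from fibroblasts on a Percoll gradient. Control cells had no treatment. The phenylephrine group received 50 µmol/l, and the treatment text of its samples also names endothelin-1 and angiotensin II, while the sample titles and the design text name phenylephrine alone. The stretch group was cultured on silicone coated with collagen, kept without serum for 24 h and then stretched in both axes to 112% for 24 h. The culture surface and serum schedule of the other groups and the length of the phenylephrine treatment are not stated in the labels, so any difference in them cannot be told apart from the treatments. RNA of several cell preparations was pooled before labelling. The labels do not state that the arrays of a group hold RNA of separate cultures, so the p-values cover the spread between these samples alone, which may be technical.

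Hypertrophy is growth of a heart muscle cell in size without division. Stretch acts through adhesion sites, the cytoskeleton and ion channels, and phenylephrine through α1-adrenergic receptors coupled to phospholipase C, and both engage MAP kinases and protein synthesis. In cultured newborn myocytes the response is classically read from the natriuretic peptides and skeletal α-actin, genes of the fetal heart programme.

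Values are log2 signals as deposited, 1 per probe set, which is a group of short probes for 1 transcript. A gene was read from its probe set with the highest mean. Each difference carries its standard error (SE) from a limma fit with n = 2 arrays per group, and adjusted p-values are two-sided limma values after Benjamini-Hochberg adjustment over 31042 probe sets. Array medians lay between 8.30 and 8.33. The interquartile range was 1.70 to 1.82 on the replicate 2 arrays and 1.89 to 1.92 on the replicate 1 arrays, in all 3 groups. The median of the hybridization spike-ins was 9.31 on phenylephrine replicate 2 and 10.1 to 10.4 on the other 5 arrays. The 19 cardiac myocyte markers measured had control means of 10.8 to 14.7, well above the array medians. Fibroblast markers were also present, with median levels of 11.8 and 11.9 on the control arrays.

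The common rises made up 1.24% of named genes and the common falls 0.654%. The rises had a median difference of 0.71 log2, from 0.32 to 2.00, and 36 of them reached 1 log2. The falls had a median of -0.60, and 3 reached 1 log2. By position alone, without a test, all 4 treated arrays lay above both controls for 10.6% of named genes and below both for 11.5% (22.1% in all), and 2871 of these 3140 genes did not pass the threshold. Among all probe sets, 426 (1.37%) passed the threshold in the pooled contrast, 63.4% of them upward. After quantile normalization between arrays 1532 passed and the upward share was 52.9%, with 520 common rises and 464 common falls. List counts given below for this normalization are to be read against 520 and 464 of all 14217 named genes, not against the main shares. The counts moved when single arrays were left out: without control replicate 1 there were 23 rises and 5 falls, without control replicate 2, 16 and 3, without stretch replicate 1, 60 and 30, and without stretch replicate 2, 85 and 24. Without phenylephrine replicate 1 there were 168 rises and 181 falls, and without phenylephrine replicate 2, 249 and 92. With all treated arrays as 1 group, so that the gap between the treatments counted as spread, 8 rises and 2 falls passed. After quantile normalization none of the 269 genes had a difference of opposite sign. With arrays left out or treated arrays in 1 group the sign could not turn. The rule had placed all 4 treated arrays on 1 side of both controls. Among the 101 genes picked by the naming rule, the called genes Asns, Epha4, Fhl1, Mllt11, Nppb and Tnfrsf12a kept the call in every one of the 15 alternatives tried, and the other called genes lost it in at least 1, of 86 called in all. The call was lost in 77 with all treated arrays in 1 group, in 69 without control replicate 2 and in 64 without control replicate 1.

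**Figure D1:**
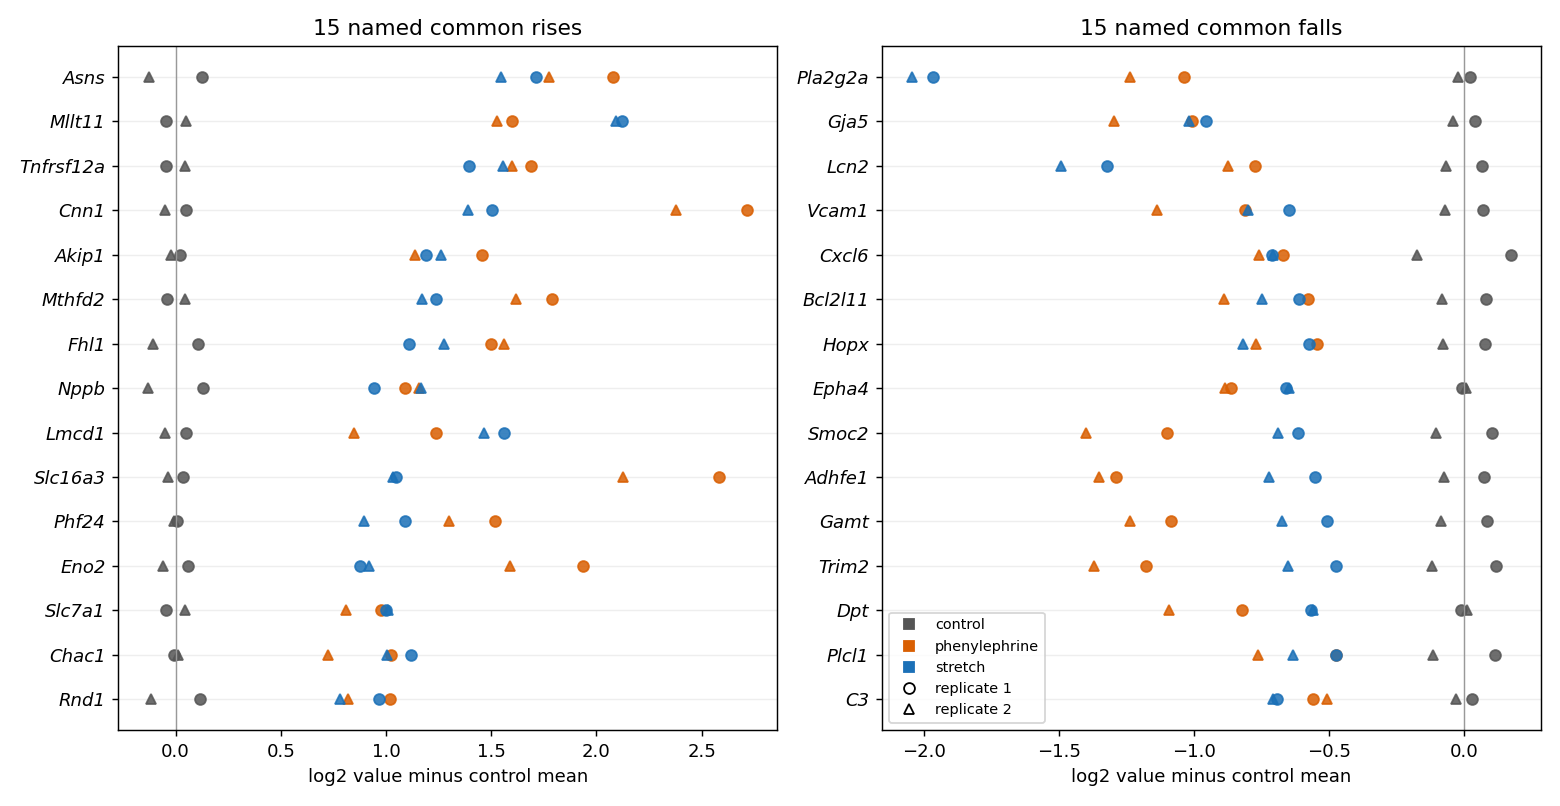
Log2 value minus the control mean (x axis) on each of the 6 arrays for the 15 common rises and 15 common falls with the largest smaller-of-2 treatment change; colour gives the group and shape the replicate number. Nppb, Akip1 and Gja5 have intermixed phenylephrine and stretch arrays, while Cnn1 and Slc16a3 lie farther out with phenylephrine and Pla2g2a with stretch.

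The natriuretic peptides and skeletal α-actin rose. Of 16 hypertrophy and fetal genes measured, 6 were common rises (Fhl1, Nppb, Nppa, Acta1, Acta2 and Csrp3) and 0 were falls, and the list's median difference was 0.27 log2 beside 0.00 over all named genes. By unadjusted limma p under 0.05, 10 were higher and 0 lower, beside 7.23% of all named genes higher and 7.39% lower. Throughout, such counts from the fit to all 6 arrays are to be read against these shares. The shares were not computed for fits with an array left out. Counts at an unadjusted p in those fits have no such background. Nppb encodes brain natriuretic peptide, a hormone released by strained myocytes. Its log2 level was 13.33 and 13.07 on the control arrays, 14.29 and 14.36 with phenylephrine and 14.14 and 14.37 with stretch. The arrays of the 2 treatments interleaved. The pooled difference was 1.09 ± 0.10 (SE), a 2.13-fold rise with an adjusted p of 0.00537. Nppa, which encodes atrial natriuretic peptide, stood at 13.85 and 13.64 in control, 14.69 and 14.92 with phenylephrine and 14.39 and 14.59 with stretch. It rose by 0.90 ± 0.11 (adjusted p = 0.0101). The call for Nppa was lost without control replicate 2 and with all treated arrays in 1 group (adjusted p at most 0.112), whereas that for Nppb held in all 15 alternatives tried.

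Acta1, the skeletal α-actin gene, measured 13.23 and 12.98 in control, 14.19 and 14.21 with phenylephrine and 13.76 and 13.88 with stretch. It was higher by 0.90 ± 0.10 (adjusted p = 0.00694). Fhl1 encodes a LIM domain protein that binds titin at the sarcomere. Its values were 12.58 and 12.37 in control, 13.98 and 14.04 with phenylephrine and 13.59 and 13.76 with stretch, a difference of 1.36 ± 0.10 (adjusted p = 0.00222). For both genes every phenylephrine array lay above every stretch array, but the difference between treatments missed the threshold: stretch minus phenylephrine was -0.38 for Acta1, with a 95% interval, not adjusted for the number of genes, of -0.64 to -0.12, and -0.34 for Fhl1 (-0.60 to -0.07). Csrp3, a Z-disc LIM protein, rose by 0.64 ± 0.08 and Acta2, smooth muscle α-actin, by 0.67 ± 0.10. The remaining 10 genes were not called. Among them Myh7, the slow β-myosin heavy chain, differed by 0.16 ± 0.10, and Ankrd1, a stretch-sensed nuclear and titin-binding protein, by 0.25 ± 0.09. The control mean of Myh7 was 14.58, near the highest values of the arrays, which were 14.74 to 15.18. The treated arrays of Nppa (14.39 to 14.92) and Nppb (14.14 to 14.37) also lay near those values. Whether this limited the differences of these genes was not tested. Rcan1, a feedback gene of calcineurin, was higher on all 4 treated arrays, by 0.39 ± 0.12 (adjusted p = 0.216). Without control replicate 2, 2 of the list were common rises, as with all treated arrays in 1 group.

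**Figure D2:**
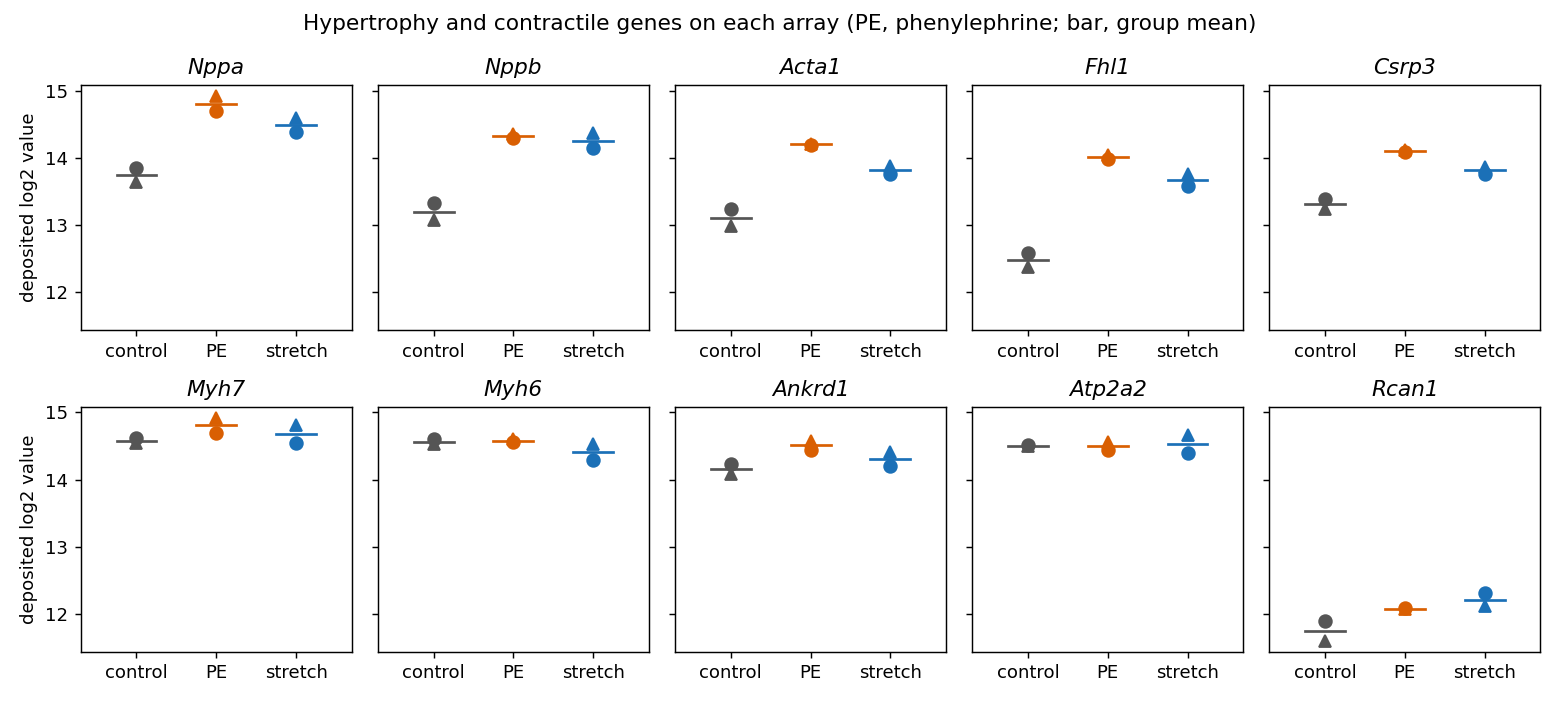
Deposited log2 values (y axis) on each array of 5 common rises (top row) and 5 panel genes that were not called (bottom row); bars are group means and circles and triangles are replicates 1 and 2. Nppa, Nppb, Acta1, Fhl1 and Csrp3 have all 4 treated arrays above both controls, while Myh6 and Atp2a2 overlap between groups.

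The start regions of Acta1, Fhl1 and Dusp5, common rises, hold a CArG box, the element bound by serum response factor (SRF) in actin and early response genes. The stretches below are 120 bases ahead of the RefSeq start on assembly GRCr8, in the direction of the gene, with the CArG box in capitals. They lie at chr19:68784229-68784348, minus strand for Acta1, at chrX:139638334-139638453, plus strand for Fhl1 and at chr1:262543632-262543751, plus strand for Dusp5, which holds 2 adjoining matches.
Acta1: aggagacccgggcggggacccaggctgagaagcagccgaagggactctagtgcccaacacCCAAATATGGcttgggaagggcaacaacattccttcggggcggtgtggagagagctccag
Fhl1: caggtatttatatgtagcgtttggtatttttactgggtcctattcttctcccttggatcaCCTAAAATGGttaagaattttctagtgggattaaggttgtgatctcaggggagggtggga
Dusp5: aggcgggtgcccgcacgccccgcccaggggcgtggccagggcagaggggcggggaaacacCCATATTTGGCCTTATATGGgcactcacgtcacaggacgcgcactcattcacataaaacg
Searched on both strands of windows from 250 bases before to 50 after the start, a CArG box was present for 4 of 154 common rises with a start in the table (2.60%), 0 of 71 common falls, 1.48% of all named genes on the array and 1.64% of all 33469 windows. A gene with several starts was counted once. None of the 8 common rises of the cytoskeleton and SRF list below held one in these windows, which says nothing about the factor. A match describes the letters in the window.

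Of 17 adult contractile genes 0 were called by limma, with a median of 0.11, and 4 were higher and 0 lower at an unadjusted p under 0.05. After quantile normalization this median was -0.02, with 2 rises and 3 falls. Myl4, the atrial light chain of myosin, had the largest difference, 0.69 ± 0.13 (adjusted p = 0.0518), with all 4 treated arrays above both controls. Myh6, the fast α-myosin heavy chain, read 14.60 and 14.52 in control, 14.56 and 14.60 with phenylephrine and 14.29 and 14.52 with stretch, a difference of -0.07 ± 0.09. Atp2a2, the calcium pump of the sarcoplasmic reticulum, differed by 0.01 ± 0.09. The control means of Myh6 (14.56) and Atp2a2 (14.50) also lay near the highest values of the arrays. Whether this limited the differences was not tested. Among 22 calcium handling and ion channel genes 1 was a common fall and 0 were rises (0 higher and 4 lower at an unadjusted limma p under 0.05), and 3 were falls after quantile normalization. It was Gja5, the gap junction protein connexin 40 of atrial and conducting myocytes and endothelium. Its levels were 11.67 and 11.59 in control, 10.63 and 10.34 with phenylephrine and 10.68 and 10.61 with stretch. Gja5 was 2.10-fold lower, with a difference of -1.07 ± 0.11 (adjusted p = 0.00694), and the treatments were within 0.16 log2 of each other (95% interval -0.14 to 0.47). Its call was lost without either control array.

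The amino acid response held the densest group of common rises. ATF4 is a transcription factor translated when the kinases of eIF2α are active, and its targets import and make amino acids, load tRNAs and brake the stress signal. Of 33 measured genes of this list, 18 were common rises and 0 falls, all 33 differences were above 0, and the median was 0.59 log2. Asns, asparagine synthetase, led: 9.46 and 9.21 in control, 11.41 and 11.11 with phenylephrine, 11.05 and 10.88 with stretch. It rose 3.43-fold, by 1.78 ± 0.13 (adjusted p = 0.00222), and the call held in all 15 alternatives. Mthfd2, a mitochondrial folate enzyme, measured 8.82 and 8.90 in control, 10.65 and 10.48 with phenylephrine and 10.10 and 10.03 with stretch (difference 1.45 ± 0.09). Serine and glycine synthesis was represented by Phgdh, at 1.03, Psph, at 0.63, and Shmt2, at 0.68, and proline synthesis by Aldh18a1, at 0.73. The amino acid carriers Slc7a1 (0.95), Slc1a4 (0.79), Slc3a2 (0.60), Slc7a5 (0.59) and Slc7a3 (0.43) were all common rises.

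Regulators of the same list also rose. Atf5 rose by 0.99, Trib3, a pseudokinase, by 1.15, Ppp1r15a, which directs the dephosphorylation of eIF2α, by 0.78, Eif4ebp1, a repressor of cap-dependent translation, by 0.68, and Sesn2, an mTORC1 inhibitor, by 0.64. Chac1, which degrades glutathione, was 9.03 and 9.05 in control, 10.06 and 9.76 with phenylephrine and 10.16 and 10.04 with stretch (difference 0.97 ± 0.11, adjusted p = 0.00771). Atf4 itself differed by 0.48 with all 4 treated arrays above the controls, but its adjusted p was 0.0595. Of the 18 rises, 2 differed between treatments, Gdf15 and Trib3, both higher with stretch. Among all 33 members the treatments differed in 7, beside 1.84% of all named genes. The list's median was 0.63 with stretch and 0.48 with phenylephrine, each against the same control arrays. Gdf15, a secreted stress cytokine, was 8.72 and 8.75 in control, 9.02 and 8.94 with phenylephrine and 11.53 and 11.60 with stretch, so its pooled difference of 1.54 came mostly from stretch. With either control array left out, 4 ATF4 genes were common rises in each case. Without stretch replicate 1 or 2 there were 11 and 12, and 2 with all treated arrays in 1 group.

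Cytosolic aminoacyl-tRNA synthetases, which attach amino acids to tRNAs, followed a like course. Of 19 measured, 5 were common rises (Gars1, Wars1, Sars1, Yars1 and Eprs1), 0 were falls, 13 had all 4 treated arrays above both controls, and the median was 0.43. Gars1, for glycine, read 11.14 and 11.07 in control, 12.09 and 11.95 with phenylephrine and 11.93 and 11.86 with stretch. It rose by 0.86 ± 0.10 (adjusted p = 0.00954). Wars1 rose by 0.80 ± 0.10 and Yars1 by 0.71 ± 0.11. The difference between treatments missed the threshold for all 5, and stretch minus phenylephrine for Gars1 was -0.12 (-0.38 to 0.15). The count was 12 rises and 1 fall after quantile normalization and 8 without phenylephrine replicate 2. It was 0 without control replicate 1, without control replicate 2 or without stretch replicate 1, where limma gave 11, 9 and 11 members higher and 0 lower at an unadjusted p under 0.05, and 1 without stretch replicate 2.

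The start regions of Chac1, of Eprs1, the synthetase for glutamate and proline, and of Gadd45g, a growth arrest gene, hold TTGCATC, most of the C/EBP-ATF element read by ATF4. They are shown as above, with this motif in capitals, at chr3:126795904-126796023, plus strand for Chac1, chr13:99433108-99433227, plus strand for Eprs1 and chr17:13530414-13530533, minus strand for Gadd45g.
Chac1: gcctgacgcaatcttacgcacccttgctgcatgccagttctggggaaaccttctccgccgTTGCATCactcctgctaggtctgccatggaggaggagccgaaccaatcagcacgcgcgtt
Eprs1: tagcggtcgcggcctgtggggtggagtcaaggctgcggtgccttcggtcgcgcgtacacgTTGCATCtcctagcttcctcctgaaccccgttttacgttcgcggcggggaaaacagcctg
Gadd45g: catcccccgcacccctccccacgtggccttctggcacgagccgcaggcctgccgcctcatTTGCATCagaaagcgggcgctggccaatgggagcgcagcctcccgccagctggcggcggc
On both strands TTGCATC was present for 7 of 154 common rises (4.55%), 1 of 71 common falls (1.41%), 2.17% of named genes on the array and 2.56% of all windows of the table. It was present for 2 of 15 common rises of the ATF4 list. TGACGTC, most of the cyclic AMP element, was present for 13 rises (8.44%), 0 falls, 5.10% of genes on the array and 3.22% of all windows. TGAGTCA, the AP-1 element, was present for 6.49% of rises, 7.04% of falls, 4.21% of genes on the array and 4.63% of all windows. CACGTG, the E-box, was present for 9.09% of rises, 5.63% of falls, 9.38% of genes on the array and 6.42% of all windows.

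Other genes of protein synthesis moved less. Of 38 ribosome biogenesis genes 37 had differences above 0, with a median of 0.22, but 2 were common rises, Nhp2 (0.61 ± 0.11), a subunit of the RNA-guided pseudouridylation complex, and Rrp12 (0.43 ± 0.08), an export factor of ribosomal subunits. Nhp2 was 10.38 on both control arrays, 11.09 and 10.84 with phenylephrine and 11.02 and 11.03 with stretch. After quantile normalization 9 were common rises. Leaving out any of the control or stretch arrays gave 0 by limma, with 2 to 10 higher and 0 lower at an unadjusted p under 0.05. Among 32 translation factors 2 rose, Eif2s2, a subunit of eIF2, by 0.63 ± 0.11 and Eif2b3, a subunit of its exchange factor, by 0.54 ± 0.10, and 9 rose after quantile normalization. This count was 1 without phenylephrine replicate 1 and 0 without any of the control or stretch arrays, with 2 to 11 higher and 0 to 2 lower at an unadjusted limma p under 0.05. None of 15 ribosomal protein genes was called, and 2 were higher and 0 lower at an unadjusted limma p under 0.05. Of 22 polyamine and nucleotide synthesis genes 2 rose, the mitochondrial folate gene Mthfd1l (0.87 ± 0.13) and spermidine synthase, Srm (0.55 ± 0.10). The count was 4 after quantile normalization, 1 without phenylephrine replicate 1 or stretch replicate 2, and 0 by limma without control replicate 1, control replicate 2 or stretch replicate 1, with 6, 3 and 5 higher and 0 lower at an unadjusted p under 0.05.

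**Figure D3:**
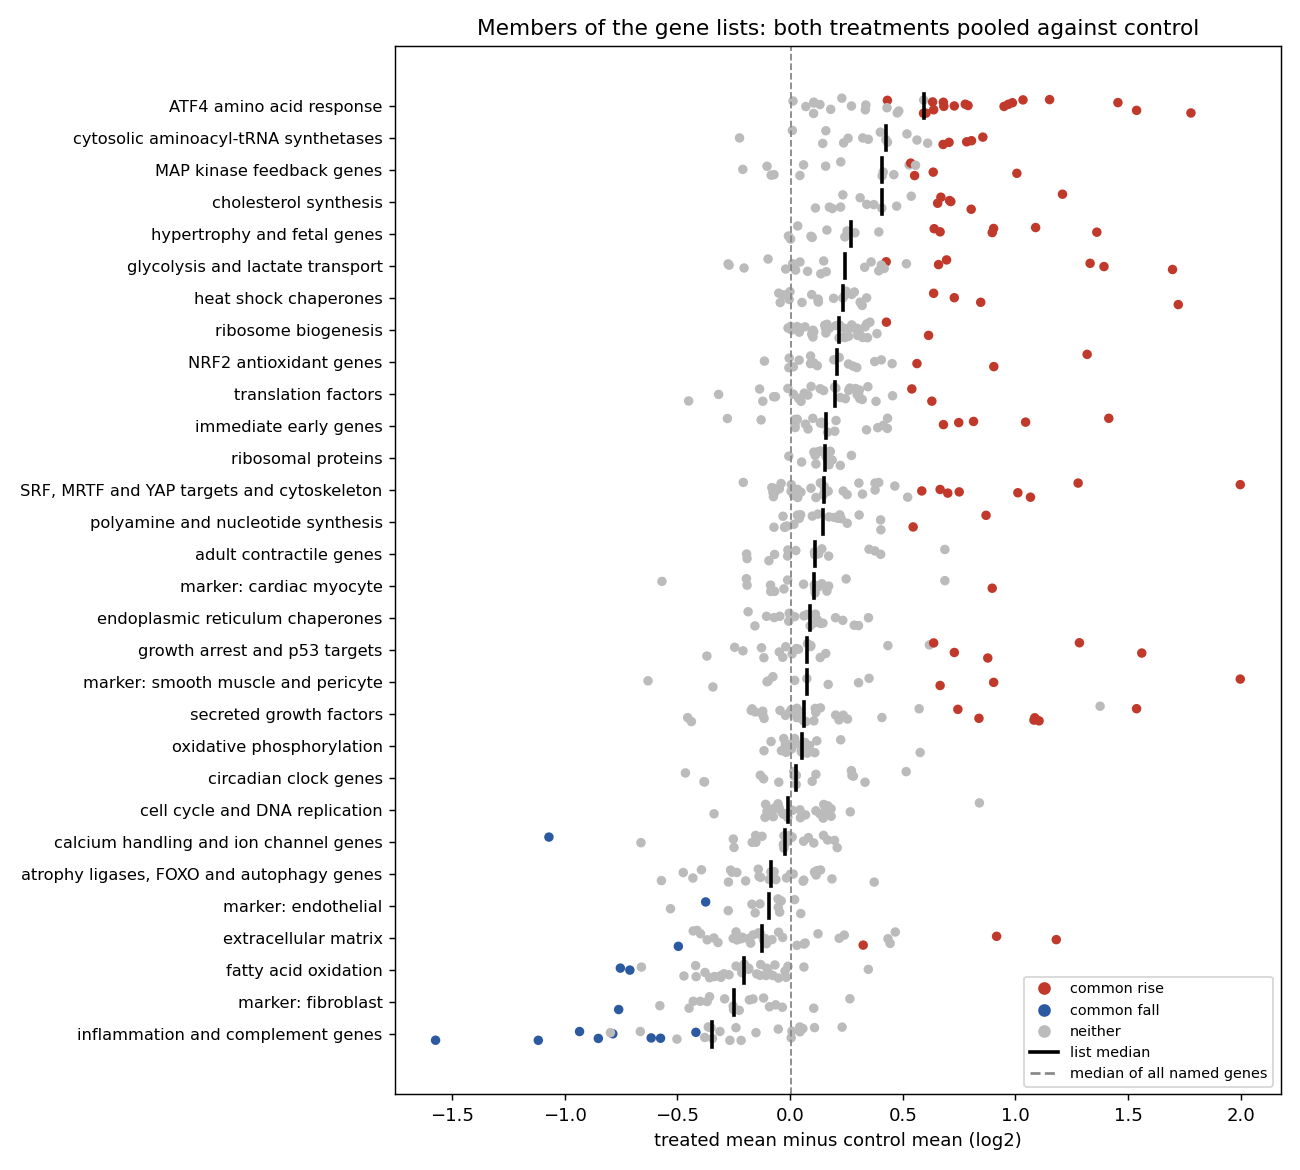
Pooled difference, treated mean minus control mean in log2 (x axis), of every measured member of 30 gene lists (rows, ordered by list median); red and blue points are common rises and falls, grey points neither, black bars list medians and the dashed line the median of all named genes. The ATF4 list has 18 red points and a median of 0.59, and the inflammation list 8 blue points and a median of -0.35.

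Immediate early genes, transcription factors induced without new protein synthesis, gave 5 common rises among 26 measured and 0 falls, with a median of 0.16. Maff, a small MAF factor, measured 8.29 and 8.20 in control, 9.05 and 8.97 with phenylephrine and 9.12 on both stretch arrays, a rise of 0.81 ± 0.07 (adjusted p = 0.00319). Its relative Mafk rose by 0.68 ± 0.10. The other 3, Nr4a3, Fos and Fosl1, differed between treatments. Nr4a3, an orphan nuclear receptor, was 7.71 and 7.44 in control, 9.85 and 9.60 with phenylephrine and 8.27 and 8.24 with stretch. Fos was 9.12 and 8.92, then 10.98 and 10.34, then 9.65 and 9.29 in the same order, while the other probe set of Fos differed by -0.01 and was not called. On the probe sets read here, the treated arrays of Nr4a3 and Fos thus lay above both controls, and highest with phenylephrine. Stretch minus control alone did not pass by limma for Fos (0.45 ± 0.22, adjusted p = 0.972) or Nr4a3 (0.68 ± 0.11, adjusted p = 0.0812). Fosl1, in contrast, was higher with stretch (1.21 above control) than with phenylephrine (0.29). Egr1 and Myc were not called. Egr1 was 11.01 and 11.04 in control, 10.60 and 10.45 with phenylephrine and 11.19 and 11.35 with stretch, on opposite sides of control, and Myc was above both controls on the stretch arrays only. With control replicate 1 or 2 left out, 2 and 1 early genes were common rises. Without stretch replicate 1 or 2 there were 3 in each case, and after quantile normalization 9 were common rises and 1 a fall.

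Feedback genes of MAP kinase signalling, which dephosphorylate or dampen the kinases that induce them, had 4 common rises and 0 falls among 17 measured. The median pooled difference was 0.41, but 0.23 with phenylephrine and 0.13 with stretch, each against the same control arrays. The treatments differed in 4 of the 17. Dusp5, a nuclear ERK phosphatase, was 10.67 and 10.69 in control, 11.44 and 11.42 with phenylephrine and 11.04 and 11.03 with stretch, a rise of 0.55 ± 0.09 (adjusted p = 0.0344). Rgs2, which shortens Gq signalling, was 11.18 and 10.92 in control, 12.92 and 12.77 with phenylephrine and 11.31 and 11.22 with stretch. It rose by 1.01 ± 0.11, with a treatment difference of -1.58. Phlda1 (0.64) was also higher with phenylephrine and Dusp2 (0.54) with stretch. When control replicate 1 or 2 was left out, 0 of the list passed in limma (8 and 6 were higher at an unadjusted p under 0.05, and 0 lower). Without stretch replicate 1, 2 passed, and 7 after quantile normalization.

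Secreted growth factors rose in 6 of 37 measured genes, with 0 falls and a median of 0.06. Hbegf, a membrane-shed ligand of the EGF receptor, was 7.89 and 7.83 in control, 8.92 and 8.70 with phenylephrine and 8.67 and 8.50 with stretch. It rose by 0.84 ± 0.08 (adjusted p = 0.00583). Areg, a second ligand of that receptor, rose by 1.08, Fstl3, which binds activins, by 1.10 ± 0.14, Tgfb3 by 1.09 ± 0.11 and the neurotrophin Bdnf by 0.74. Areg and Tgfb3 were higher with phenylephrine than with stretch, and Gdf15 was higher with stretch. Tgfb3 was 9.27 and 9.23 in control, 10.95 and 10.59 with phenylephrine and 9.94 and 9.87 with stretch. In fits without control replicate 1 or 2, 2 and 1 of the list were common rises.

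Genes of the cytoskeleton and of SRF, MRTF and YAP, factors that respond to actin assembly, had 8 common rises among 39 and 0 falls, with a median of 0.15. Cnn1, calponin, had the largest pooled difference of all common genes: 8.35 and 8.25 in control, 11.02 and 10.68 with phenylephrine and 9.80 and 9.69 with stretch. It rose 3.99-fold, by 2.00 ± 0.11 (adjusted p = 0.00105), and more with phenylephrine, with stretch minus phenylephrine at -1.10 ± 0.13 (adjusted p = 0.0109). Lmcd1, a LIM domain cofactor, was 9.07 and 8.98 in control, 10.26 and 9.87 with phenylephrine and 10.58 and 10.49 with stretch (difference 1.28 ± 0.12). Tubb6, a β-tubulin, rose by 1.07 ± 0.11, the matricellular YAP targets Ccn1 by 1.01 and Ccn2 by 0.70, the actin crosslinker Actn1 by 0.75 and Pdlim5 by 0.58. Cnn1, Acta2 and Cspg4 (0.90 ± 0.08) are also smooth muscle and pericyte markers, 3 of 13 of which were common rises (1 without either control array). The log2 of the summed signal of those 13 was 14.55 and 14.50 in control, 14.84 and 14.82 with phenylephrine and 14.69 and 14.77 with stretch, and 3 of the 13 had all treated arrays below the controls. The part of other cell types in these rises was not tested, and in RNA of whole cultures more cells of a type and more RNA per cell cannot be told apart. Of the 39 genes, 1 was a common rise without control replicate 1 and 1 without control replicate 2. Without stretch replicate 1 or 2 there were 3 and 4.

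Stress and growth arrest genes rose in small numbers. Of 23 growth arrest and p53 targets 5 were common rises, with 0 falls and a median of 0.08. All 4 treated arrays lay above both controls for 8 of the 23 and below both for 5. At an unadjusted limma p under 0.05, 7 were higher and 2 lower. Tnfrsf12a, the receptor of the cytokine TWEAK, was 10.54 and 10.63 in control, 12.28 and 12.18 with phenylephrine and 11.98 and 12.14 with stretch. It rose 2.95-fold, by 1.56 ± 0.10 (adjusted p = 0.00192), and stretch minus phenylephrine was -0.17 (-0.44 to 0.10). Plk2, a polo-like kinase, rose by 0.88 ± 0.09, and Gadd45g was 10.17 and 10.03 in control, 10.88 and 10.87 with phenylephrine and 11.96 and 11.82 with stretch. Of 20 NRF2 antioxidant genes 3 were common rises, Hmox1, Srxn1 and Txnrd1, and 0 were falls. The median of this list was 0.45 with stretch and 0.06 with phenylephrine, each against the same control arrays. The treatments differed in 4 of the 20, Hmox1 and Srxn1 among them. Hmox1, Srxn1 and Txnrd1 lay above control by 0.10, 0.35 and 0.33 with phenylephrine and by 2.53, 1.46 and 0.79 with stretch. Of 23 heat shock chaperones 4 were common rises, Hspa1a, Dnajb5, Hspb3 and Hspb6, and 0 were falls. Dnajb5, an HSP70 cofactor, was 9.60 and 9.59 in control, 10.72 and 10.51 with phenylephrine and 10.19 and 10.34 with stretch (difference 0.85 ± 0.10). Of 22 endoplasmic reticulum chaperones 0 were called, with 3 higher and 0 lower at an unadjusted limma p under 0.05, and 2 were rises after quantile normalization. Leaving out control replicate 1 or 2, growth arrest counts were 2 and 1, heat shock counts 1 in each case and NRF2 counts 0 in each case, with 7 and 3 NRF2 genes higher and 0 lower at an unadjusted p under 0.05. Without stretch replicate 1 or 2 there were in each case 3 growth arrest, 2 heat shock and 2 NRF2 rises, and after quantile normalization 9 heat shock and 5 NRF2 genes were common rises.

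Some members of these lists rose far more with stretch. Hmox1, heme oxygenase 1, was 10.96 and 11.03 in control, 11.09 and 11.11 with phenylephrine and 13.35 and 13.70 with stretch. The phenylephrine arrays lay above the controls by less than 0.2 log2. Hspa1a, the inducible HSP70, was 8.71 and 8.76, then 9.36 and 9.29, then 11.59 and 11.58 in the same order. Srxn1, sulfiredoxin, which repairs oxidized peroxiredoxins, was 9.68 and 9.50 in control, 10.00 and 9.88 with phenylephrine and 11.00 and 11.10 with stretch. Its start region holds TGAGTCA, the core of the AP-1 element that also lies within antioxidant elements, in capitals here at chr3:161064690-161064809, plus strand.
Srxn1: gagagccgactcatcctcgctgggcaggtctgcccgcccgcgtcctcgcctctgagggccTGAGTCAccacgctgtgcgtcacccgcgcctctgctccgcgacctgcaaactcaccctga

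Of 24 glycolysis and lactate transport genes measured, 6 were common rises and 0 falls, with a median of 0.25, and 3 of the 6 rose more with phenylephrine. Slc16a3, the lactate exporter MCT4, was 9.57 and 9.50 in control, 12.12 and 11.66 with phenylephrine and 10.58 and 10.57 with stretch. It rose 3.24-fold, by 1.70 ± 0.14 (adjusted p = 0.00307), with a treatment difference of -1.32 ± 0.16. Eno2 was 10.35 and 10.23 in control, 12.22 and 11.88 with phenylephrine and 11.17 and 11.21 with stretch, and Eno3 was 9.97 on both control arrays, 12.59 and 12.40 with phenylephrine and 10.30 and 10.16 with stretch. Both encode enolase. The phosphofructokinase subunits Pfkp and Pfkl rose by 0.66 and 0.69 and hexokinase 2, Hk2, by 0.43. For Pfkp stretch minus phenylephrine was -0.06 (-0.34 to 0.21). Slc16a3, Eno2 and Eno3 were the 3 rises of this list that differed between treatments. There were 2 rises without control replicate 1 or 2, and 3 without stretch replicate 1 or 2. After quantile normalization there were 12 rises and 2 falls.

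Fatty acid oxidation genes leaned the other way. Of 33 measured, 31 had differences below 0, beside 6897 of all 14217 named genes, and the median was -0.20. It was -0.33 with phenylephrine and -0.10 with stretch, each against the same control arrays. For 14 members all 4 treated arrays lay below both controls, but 2 were common falls and 0 were rises. These were Pdk4 and Pdk2, kinases that shut off pyruvate dehydrogenase and so favour fatty acid use. Pdk4 was 11.18 and 11.01 in control, 10.20 and 9.90 with phenylephrine and 10.71 and 10.55 with stretch, a fall of -0.75 ± 0.12 (adjusted p = 0.0314). Pdk2 was 12.79 on both control arrays, 11.80 and 11.45 with phenylephrine and 12.44 and 12.64 with stretch, and differed between treatments by 0.91. Cpt1a, which admits fatty acids to mitochondria, differed by -0.47 ± 0.10 and was not called (adjusted p = 0.0875). After quantile normalization 13 were common falls and 1 a rise, and without phenylephrine replicate 1 there were 4 falls. Without any 1 of the control or stretch arrays 0 passed, while limma gave between 5 and 12 members lower and 0 or 1 higher at an unadjusted p under 0.05. Of 29 oxidative phosphorylation genes 0 were called and 1 was higher at an unadjusted p under 0.05, and their median of 0.05 turned to -0.05 after quantile normalization. In that setting 0 were common rises and 1 a common fall, and limma gave 1 higher and 8 lower at an unadjusted p under 0.05. The share of all named genes at an unadjusted p was not computed for that setting.

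All 17 measured genes of cholesterol synthesis had differences above 0, with a median of 0.41, and 14 had all 4 treated arrays above both controls. SREBP factors induce this pathway when membrane sterol is low. Of them 6 were common rises (Idi1, Acat2, Fdps, Dhcr7, Sqle and Hsd17b7) and 0 falls. Idi1, which isomerizes the pathway's isoprenoid unit, was 10.87 and 10.38 in control, 12.63 and 12.19 with phenylephrine and 11.37 and 11.13 with stretch. It rose by 1.21 ± 0.18 (adjusted p = 0.0223). Acat2 rose by 0.80 ± 0.15 and Hsd17b7 by 0.65 ± 0.12. The list's median was 0.73 with phenylephrine and 0.22 with stretch, each against the same control arrays, and 4 of the 6 rises (Idi1, Fdps, Dhcr7 and Sqle) were larger with phenylephrine by the test between treatments. Without control replicate 1, control replicate 2 or stretch replicate 1, 0 passed in limma, with 9, 8 and 11 higher and 0 lower at an unadjusted p under 0.05. Without stretch replicate 2, 1 passed, and after quantile normalization 10.

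**Figure D4:**
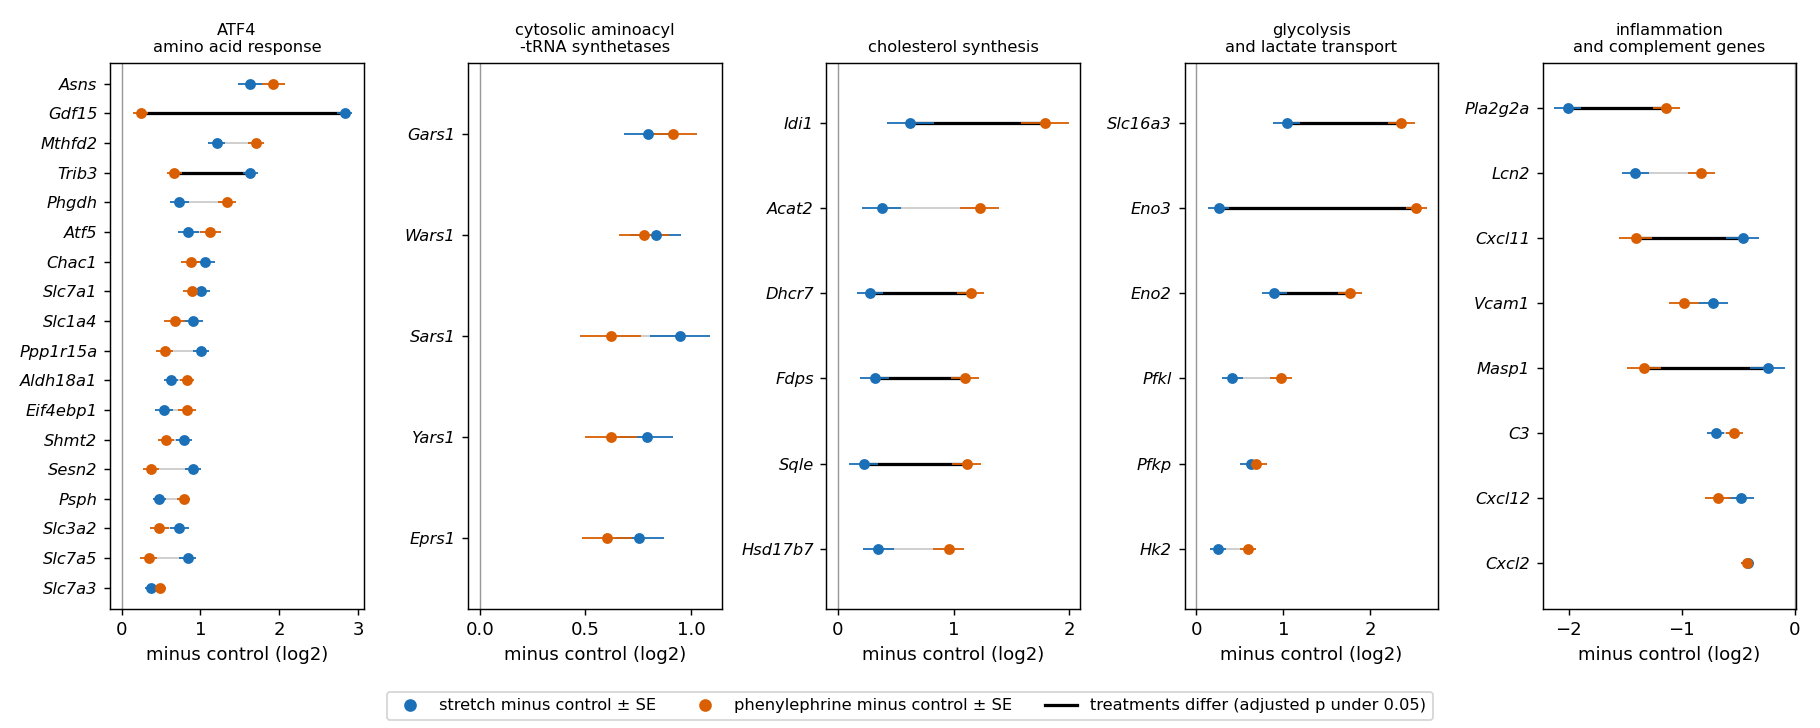
Stretch minus control (blue) and phenylephrine minus control (orange), in log2 with SE bars (x axis), for the common genes of 5 lists; both share the control arrays, and black connecting lines mark genes whose treatments differ at an adjusted p under 0.05. The aminoacyl-tRNA synthetases have no black line, the ATF4 list 2, glycolysis 3, inflammation 3 and cholesterol synthesis 4.

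The inflammation and complement genes formed the largest group of common falls among the lists. Of 28 measured, 8 were common falls and 0 rises, 15 had all 4 treated arrays below both controls, and the median was -0.35. Pla2g2a, a secreted phospholipase of the acute phase, had the largest fall: 12.57 and 12.53 in control, 11.51 and 11.32 with phenylephrine and 10.58 and 10.51 with stretch. It was 2.97-fold lower, with a difference of -1.57 ± 0.10 (adjusted p = 0.00192), and fell further with stretch. Lcn2, a lipocalin that withholds iron from bacteria, was 11.38 and 11.24 in control, 10.54 and 10.43 with phenylephrine and 9.99 and 9.82 with stretch (difference -1.12 ± 0.10). Vcam1, a leukocyte adhesion receptor, was 10.24 and 10.09, then 9.35 and 9.03, then 9.52 and 9.36 (difference -0.85 ± 0.11). Complement C3 differed by -0.62 ± 0.07, and the chemokines Cxcl12 by -0.57 and Cxcl2 by -0.42, while Cxcl11 and Masp1 fell more with phenylephrine. There was 1 fall without control replicate 1 or 2, and without stretch replicate 1 or 2, 5 and 4. After quantile normalization 15 were common falls.

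Fibroblast markers moved in the same direction as these falls. Of 19, 13 had all 4 treated arrays below both controls, the median was -0.25, and 1 (8 after quantile normalization) was a common fall, Dpt, dermatopontin, a matrix protein. Dpt was 9.57 and 9.59 in control, 8.76 and 8.49 with phenylephrine and 9.01 and 9.02 with stretch (difference -0.76 ± 0.09). The log2 of the summed fibroblast signal was 16.53 and 16.49 in control, 16.40 and 16.35 with phenylephrine and 16.31 and 16.46 with stretch, so both control arrays lay above all 4 treated arrays, by a narrow margin, and the 2 treatments overlapped. Their part in the falls was not tested. Among 17 macrophage and leukocyte markers 0 were called, with 1 higher and 4 lower at an unadjusted limma p under 0.05, while the log2 of their summed signal was 14.34 to 14.46 in control and 14.37 to 14.50 on the treated arrays. Of 12 endothelial markers 1 was a common fall, Emcn (-0.37 ± 0.06), and the log2 of their summed signal was 12.52 and 12.53 in control and 12.28 to 12.42 on the treated arrays. Of 10 epicardial and mesothelial markers 1 was a common rise, Krt18 (0.43 ± 0.08). Red blood cell (6) and Schwann cell and neuron markers (10) gave 0 calls, and 0 at an unadjusted p under 0.05.

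The extracellular matrix list had 3 common rises and 1 fall among 36, with a median of -0.13. Timp1, an inhibitor of matrix proteases, was 10.72 and 10.51 in control, 11.96 and 11.68 with phenylephrine and 11.31 and 11.18 with stretch, a rise of 0.92 ± 0.12 (adjusted p = 0.0157). Lamb3, a laminin chain, rose by 1.18 ± 0.10, more with phenylephrine, and the protease Mmp9 differed by -0.50 ± 0.07. The list gave 0 calls by limma without control replicate 1 or 2 (6 higher in each case, and 6 and 5 lower, at an unadjusted p under 0.05), 1 rise without stretch replicate 1 or 2, and 5 rises and 4 falls after quantile normalization. None of the 34 cell cycle and DNA replication genes was in the common response. Cks2, a cofactor of cyclin-dependent kinases, passed in the pooled contrast (0.84 ± 0.11) with overlapping arrays, since it was 8.93 and 8.59 with phenylephrine, 10.71 and 10.73 with stretch and 8.89 and 8.92 in control. None of 27 atrophy and autophagy genes and none of 17 clock genes was in the common response by limma. At an unadjusted p under 0.05, 3 cell cycle, 1 atrophy and 4 clock genes were higher, and 1, 8 and 3 were lower. After quantile normalization the clock list had 4 rises and 2 falls, the atrophy list 1 and 3, and the cell cycle list 0 and 1. Over all 14217 named genes there were 520 rises and 464 falls in that setting.

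Of the 269 common genes, 94 belonged to a process list, and several of the largest changes lay outside all lists. Mllt11, a small protein first known as a fusion partner in leukaemia, was 9.44 and 9.54 in control, 11.09 and 11.02 with phenylephrine and 11.61 and 11.59 with stretch. It rose 3.57-fold, by 1.84 ± 0.09 (adjusted p = 0.00102). Akip1, which binds the catalytic subunit of protein kinase A, was 11.57 and 11.53 in control, 13.01 and 12.69 with phenylephrine and 12.74 and 12.81 with stretch, a rise of 1.26 ± 0.11. The arrays of the 2 treatments interleaved for Akip1 but not for Mllt11. Phf24 rose by 1.20 ± 0.09. Among the falls, Hopx, a homeodomain protein that restrains SRF, was 9.99 and 9.83 in control, 9.37 and 9.14 with phenylephrine and 9.34 and 9.09 with stretch (difference -0.68 ± 0.11, adjusted p = 0.0314). Epha4, an ephrin receptor, was 9.20 and 9.22 in control, 8.35 and 8.32 with phenylephrine and 8.55 and 8.56 with stretch, and differed by -0.76 ± 0.06. Bcl2l11, the cell death activator BIM, differed by -0.71 ± 0.12, Smoc2, a secreted matrix protein, by -0.95 ± 0.11, and Gamt, an enzyme of creatine synthesis, by -0.88 ± 0.10. Adhfe1 (-0.98), Trim2 (-0.92), Cxcl6 (-0.71) and Plcl1 (-0.59) completed the 15 falls that changed most with both treatments.

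The 2 treatments were then compared within the common genes by stretch minus phenylephrine, a contrast that does not use the controls. They differed at an adjusted p under 0.05 in 87 of the 269 (32.3%), beside 1.84% of all named genes, though genes with a large change under 1 treatment can enter the common response through it. In 74 of the 87 the phenylephrine change was the larger and in 13 the stretch change. The median rise was 0.88 log2 with phenylephrine and 0.59 with stretch, and the median fall -0.79 and -0.39. Of the rises, 10 reached 1 log2 with each treatment and 87 reached 0.5, and of the falls 1 and 22, while 41 of the 269 had under 0.25 log2 with 1 of the treatments. Against control singly, 45 of the 269 passed with both treatments, 203 with phenylephrine alone and 15 with stretch alone, beside 4.77% of all named genes that passed with phenylephrine and 0.521% with stretch. Those 2 comparisons share the control arrays, and passing in 1 and not the other is no test of a difference.

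Among common genes with at least 1 log2 in the pooled difference, the treatments lay closest for Nppb, Akip1, Gja5, Tnfrsf12a and Asns, with estimates of -0.07, -0.07, 0.16, -0.17 and -0.30 for stretch minus phenylephrine. The 95% interval for Akip1 ran from -0.37 to 0.23, and for Asns from -0.64 to 0.05, so a gap of that size is not excluded. They lay farthest apart for Gdf15, Mt2A, Hmox1, Eno3 and Hspa1a, at 2.59, 2.45, 2.43, -2.27 and 2.26. Mt2A, a metal-binding metallothionein, was 11.11 and 11.12 in control, 11.86 and 11.38 with phenylephrine and 13.95 and 14.20 with stretch. Both sets were chosen for this difference, so the values describe them. The treated arrays of Nppb lay near the highest values of the arrays, and whether this narrowed its gap was not tested.

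The rule's edge divided genes with nearly the same pattern. Just inside, the lowest treated value exceeded the highest control by 0.01 log2 for Fibin and by 0.02 for Bmp7, which was 9.08 and 9.13 in control, 10.54 and 10.49 with phenylephrine and 9.24 and 9.15 with stretch. Just outside, Inha, the α-subunit of inhibin, was 9.02 and 8.90 in control, 11.82 and 11.39 with phenylephrine and 9.12 and 9.01 with stretch, and Wfdc1 was 8.58 and 8.43, then 11.57 and 11.09, then 8.83 and 8.57. Among falls, Sash1 and Dnah7 lay just inside, and Cxcl10 and Hamp, hepcidin, just outside. In all, 21 named genes passed the threshold with overlapping arrays, 12 upward and 9 downward, among 1.32% of named genes called higher and 0.717% called lower. The treatments differed in all 21. This choice favours such a difference, since a gene passes with overlap mostly when 1 treatment stays near control. Of the 269 common genes, 85 had further probe sets. Of these 128, 114 had differences of the same sign, 30 met the same rule and 0 met the threshold in the opposite direction. Averaging all probe sets of a gene left 165 of the 176 rises and 87 of the 93 falls in the common response. Among the genes picked by the naming rule, it kept the calls but reduced the difference by over 1.5 times for Bcl2l11 (to -0.27), Smoc2 (-0.36), Epha4 (-0.47), Gja5 (-0.65), Pdk4 (-0.42), Fos (0.52), Nr4a3 (0.70), Akip1 (0.78), Tubb6 (0.59), Slc7a1 (0.55) and Srxn1 (0.52). Of probe sets without a single gene symbol, 38 were common rises and 34 common falls, which are not named.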

How the data were processed

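Each of 6 single-channel Affymetrix arrays has a column of values, by probe set, in the deposited table. Its unit is taken as log2 because the deposited values run from about 6 to 15. How the authors summarized and normalized the probes, and whether they filtered, is not given in the sources used here. No further normalization was applied. Of 31099 probe sets, 57 array controls were left out. The platform annotation gave 1 symbol for 20826 probe sets, several for 436 and none for 9780, and 20758 matched the RefSeq gene table of assembly GRCr8. Where a gene had several probe sets (4525 genes), that of highest mean across arrays stood for it.

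limma 3.58.1 in R 4.3.3 was fitted with 1 mean per group (lmFit, eBayes with a mean-variance trend), with 3 residual and 4.8 prior degrees of freedom. The pooled contrast was the mean of the stretch and phenylephrine means, minus control. Simulated data with known changes were used to test the code. The number of arrays limits the precision. No set tests were run: lists are described by counts and medians. The members, the 34 lists (813 genes, 739 measured) and the rule for named genes were chosen with earlier results of these data known. The naming rule took the 15 rises and 15 falls with the largest smaller-of-2 treatment change and a panel of hypertrophy genes. It also took up to 3 common genes per list (or the largest difference), the 5 closest and 5 farthest between treatments, and the edge of the rule. Other genes named from the lists were chosen after their values were seen. Alternatives were 2 normalizations, 2 groups, a replicate block, other eBayes settings, array weights, a filter on dim probe sets, gene means and leaving out each array. Start regions came from the RefSeq promoter table, where 154 common rises and 71 common falls were matched.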

Additional observations from a re-analysis of the deposited data

Results flagged for a closer look

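In 32 of the 101 genes picked by the naming rule, the limma contrast stretch minus phenylephrine had an adjusted p under 0.05. Of these 32, 24 were in the common response, and some had been picked for this difference. The share over all 14217 named genes was 1.84%. Values in parentheses are stretch minus phenylephrine in log2, with 2 arrays per treatment.

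Common rises that were larger with stretch were Gdf15 (2.59), Mt2A (2.45), Hmox1 (2.43), Hspa1a (2.26), Srxn1 (1.11) and Gadd45g (1.01). Common rises that were larger with phenylephrine were Eno3 (-2.27), Rgs2 (-1.58), Nr4a3 (-1.46), Bmp7 (-1.32), Slc16a3 (-1.32), Lamb3 (-1.23), Fos (-1.19), Idi1 (-1.16), Cnn1 (-1.10), Eno2 (-0.86), Tgfb3 (-0.86), Phlda1 (-0.80), Cspg4 (-0.79) and Fibin (-0.67). Among common falls, Pla2g2a was lower with stretch (-0.87), and Pdk2 (0.91), Sash1 (0.70) and Adhfe1 (0.68) were lower with phenylephrine.

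The other 8 genes had overlapping treated and control arrays. Inha (-2.54) and Wfdc1 (-2.63) were high with phenylephrine, and Hamp (1.21), Igfbp5 (1.32) and Cxcl10 (0.67) were low with it, while their stretch arrays lay near the controls. Cks2 (1.96) and Myc (0.97) were high with stretch, and Egr1 (0.75) lay above control with stretch and below it with phenylephrine.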

How the results depend on the processing

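With 2 arrays per group, the counts moved strongly with the settings. None of the 269 common genes had the opposite sign in any of the 15 alternatives. Only the 2 normalizations and the gene means could have turned it, since the rule fixed the sign wherever the same array values were used. Over the 101 genes picked by the naming rule, 1188 values kept their side of the threshold, 293 lost the call, 27 gained it and no called value reversed. The main counts were 426 probe sets in the pooled contrast, 176 common rises, 93 common falls and 87 common genes that differed between treatments. Leaving out each array gave ranges of 24 to 577, 16 to 249, 3 to 181 and 9 to 97. After quantile normalization the counts were 1532, 520, 464 and 410. With 2 groups, 15 probe sets, 8 rises and 2 falls passed, and the treatments could not be compared. Array weights gave 640 probe sets and 161 falls. Without the mean-variance trend there were 145 falls and 134 genes that differed between treatments. The mean of a gene's probe sets gave 157 falls and 159 such genes. Centring array medians, robust empirical Bayes and leaving out dim probe sets kept all 4 counts within 1.5 times.

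The groups share replicate numbers 1 and 2, which the labels do not tie to a shared batch. With a replicate block 3255 probe sets, 671 rises, 734 falls and 597 genes that differed between treatments passed, including all 176 and 93. Under it the adult contractile list had 4 rises, and the clock list 5 rises and 2 falls. Across probe sets, the replicate 1 minus replicate 2 differences correlated at 0.487 between control and phenylephrine, 0.673 between control and stretch and 0.534 between phenylephrine and stretch. The cause of these changes in counts was not tested.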

Other observations

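The genes here lie outside the lists and were picked from the common genes after their values were seen, so their direction was set by that choice. No list of such genes was fixed or counted, and the values describe these genes alone. Common falls known to be induced by interferon were Usp18, a protease that removes ISG15 from proteins (pooled difference -0.73 ± 0.08), Isg15, a ubiquitin-like modifier (-0.67 ± 0.08), Irgm2, an immunity-related GTPase (-0.63), Irf7, a transcription factor of the interferon response (-0.60), Parp10 (-0.42), Slfn5 (-0.42), Psmb9, an immunoproteasome subunit (-0.39), Mx2 (-0.37) and Rsad2 (-0.27). Usp18 was 9.61 and 9.49 in control, 8.57 and 8.67 with phenylephrine and 9.05 and 8.99 with stretch. Irf7 and Parp10 differed between treatments (adjusted p = 0.03 and 0.0442) and were lower with phenylephrine.

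Further common falls, with roles in lipid storage or use, were Angptl4, an inhibitor of lipoprotein lipase (-0.74), the perilipins Plin4 (-0.71) and Plin5 (-0.57), Ephx2, soluble epoxide hydrolase (-0.62), and Pex11a, a peroxisome division factor (-0.50). Txnip, which restrains glucose uptake, differed by -0.54. Among rises outside the lists were the helix-loop-helix inhibitors Id4 (0.94) and Id1 (0.63), the kinase Sik1 (1.03), the prolyl hydroxylase Egln3 (1.07), and Csrp2 (0.83), which encodes a LIM domain protein.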
